A study of Homo sapiens with 12 samples.

Results

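The 10 genes described here encode proteins of the NF-kB pathway: the 5 subunits of the transcription factor (NFKB1, NFKB2, RELA, RELB and REL), 3 of its inhibitors (NFKBIA, NFKBIE and TNFAIP3) and 2 further genes that NF-kB switches on (BIRC3 and ICAM1). They were chosen by name, with earlier results of these data known, as 10 of the 58347 genes counted. All 10 were among the 16740 genes with enough counts to be tested. The RNA came from A375 cells, an established human melanoma cell line that carries the activating BRAF mutation, exposed for 8 h to DMSO (the vehicle), to Tretinoin, to Vemurafenib or to both drugs together (Combination), each listed at 5 µM. Vemurafenib inhibits the mutant BRAF kinase and so the ERK pathway, and tretinoin, all-trans retinoic acid, activates the retinoic acid receptors. Each of the 4 groups held 3 samples of this single line, with no untreated group and a single dose and time. The treatments were applied in triplicate, and nothing says that the 3 came from separate passages, so the p-values measure the spread between these samples, which may be technical.

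Total counts ran from 13510235 to 21534377 per sample. Of the drug readouts, the ERK targets DUSP6, SPRY4, ETV4 and ETV5 were lower with vemurafenib by 2.76 to 6.55 on the log2 scale, and DHRS3, a retinoid-responsive dehydrogenase, rose from 20.8 to 155.9 counts per 1000000 fragments counted (CPM) with tretinoin. The retinoid-degrading enzyme gene CYP26B1 also rose with tretinoin (log2 fold change 0.58, edgeR adjusted p = 0.031), whereas RARB (0.82, adjusted p = 0.10) and CYP26A1 (0.51, adjusted p = 0.63) did not pass the test. DHRS3 (1.74) and RARB (2.80) also rose with vemurafenib alone. Of 10 melanocyte and melanoma markers, SOX10 was listed at 0 in every sample and TYR did not exceed 1 count. The melanoma surface genes CSPG4 and MCAM were abundant, and the summed level of the 10 was 632.8 to 701.2 CPM with DMSO, 651.1 to 692.6 with tretinoin, 417.6 to 438.7 with vemurafenib and 342.9 to 362.1 with the combination, carried mostly by CSPG4 and MCAM. MITF, the melanocyte transcription factor, rose with vemurafenib from 17.6 to 32.4 CPM, and S100B was at 9.08 and 9.22 CPM. The 4 epithelial markers summed to 12.6 to 16.8 CPM with DMSO and 29.4 to 32.3 with vemurafenib, mostly from KRT14, which rose (1.24, adjusted p = 7e-05). The leukocyte markers CD3E, CD14 and CD68 did not exceed 10 counts in any sample, while LYZ had 45 to 66 counts and PTPRC 13 to 83. For CD68, 85.8% of exon bases overlap other annotated genes, and fragments there were not counted. Its low count therefore does not show that it was absent. PTPRC, which encodes CD45, rose against DMSO with tretinoin (1.46, adjusted p = 0.012), vemurafenib (1.36, adjusted p = 0.0016) and the combination (1.77, adjusted p = 9.5e-05). The part of these marker changes in the NF-kB results was not tested. Because the samples were bulk RNA, fewer cells expressing a gene and less RNA of it per cell cannot be told apart.

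NF-kB proteins bind DNA as dimers. In resting cells the IkB proteins, among them the products of NFKBIA and NFKBIE, hold the dimers in the cytoplasm, and receptors such as those for TNF, interleukin-1 and microbial products lead through the IKK kinase complex to the destruction of IkB and release of the dimer. In the canonical arm RELA pairs with the p50 product of NFKB1, and in the non-canonical arm the kinase NIK, encoded by MAP3K14, promotes the processing of the NFKB2 product, the main partner of RELB. Many pathway genes are themselves NF-kB targets, including NFKB1, NFKB2, RELB, REL, NFKBIA, NFKBIE, TNFAIP3 and BIRC3, so that their transcripts are widely used as readouts of the pathway, and in melanoma the pathway is known for driving chemokines and survival genes.

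NF-kB dimers recognise a 10-base kappa B element, and the promoters of the members were searched for it because they show the sequences to which the members' shared regulation is usually traced. RefSeq promoter windows on GRCh38.p14, running from 250 bases before to 50 bases after a transcription start, covered 8 members in 12 windows; RELB and NFKBIE were not in that table. The kappa B consensus, read on both strands, was found in 7 of these 12 windows, against 11.3% of all 35116 promoter windows. By gene, 6 of the 8 members held it in any window, a count to which the share per window does not apply. Because many members are known NF-kB targets, their choice favoured matches, and these shares are a description with no test. The 9-base string GGAAATTCC, chosen after the member windows had been seen and often lying inside a consensus match, was found in NFKB1, REL, NFKBIA and ICAM1 and in 0.461% of all windows, on either strand. Neither RELA window held a match to either search. One match per member is printed here, in 30 bases read along the strand of the gene, with the matched bases in capitals. They lie at chr4:102501300-102501329 (+) for NFKB1, chr10:102395674-102395703 (+) for NFKB2, chr2:60881518-60881547 (+) for REL, chr14:35404811-35404840 (-) for NFKBIA, chr6:137867188-137867217 (+) for TNFAIP3, chr11:102317275-102317304 (+) for BIRC3 and chr19:10270924-10270953 (+) for ICAM1. TNFAIP3 has a pair of matches side by side, and the ICAM1 match is to the 9-base string alone.
NFKB1: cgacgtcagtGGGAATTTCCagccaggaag
NFKB2: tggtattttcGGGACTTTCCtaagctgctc
REL: gtcagccgcGGGAAATTCCCctcccgccag
NFKBIA: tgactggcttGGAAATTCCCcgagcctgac
TNFAIP3: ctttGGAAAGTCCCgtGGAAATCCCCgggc
BIRC3: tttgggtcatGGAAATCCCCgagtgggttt
ICAM1: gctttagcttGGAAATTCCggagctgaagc
A match describes only the letters in the window. The NFKB2, REL, TNFAIP3 and ICAM1 matches lie inside the GENCODE bounds of their genes but before a RefSeq start, and the other 3 lie upstream of the gene. In the results that follow, members that fell (TNFAIP3 and BIRC3) and a member that did not pass the test in any comparison (NFKBIA) all carry a match. RELA, which also did not pass the test in any comparison, carries none in its windows.

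Values are given as CPM after TMM normalisation, which scales each library so that most genes do not change on average. A gene is said to have risen or fallen where edgeR's quasi-likelihood test gave a Benjamini-Hochberg adjusted p below 0.05 over all genes tested in that comparison. Levels of different genes were compared only after division by exon length, as CPM per kilobase. With DMSO, NFKB2 was the most abundant member at 23.4 ± 0.689 CPM per kilobase (SD, n = 3), ahead of RELA at 20.2 ± 1.15. NFKBIA at 15.5 ± 1.62 and NFKB1 at 15.4 ± 1.66 did not differ beyond their spread, and RELB came below both at 11.8 ± 1.32. ICAM1 at 8.95 ± 0.604 and NFKBIE at 8.71 ± 0.416 again did not differ beyond their spread. TNFAIP3 at 1.90 ± 0.094, BIRC3 at 1.31 ± 0.296 and REL at 0.204 ± 0.017 CPM per kilobase formed the low end, so the members spanned about 2 orders of magnitude per length. The REL level is a minimum, since 43.3% of its exon bases overlap another annotated gene and fragments there were not counted for REL; for ICAM1 the overlapped part is 23.6%, for TNFAIP3 1.88%, and for the other 7 members it is 0 or 0.165%.

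Vemurafenib alone was compared with DMSO to ask how far BRAF inhibition moved the pathway. Of the 10 members, 7 fell: TNFAIP3, BIRC3, ICAM1, RELB, NFKBIE, NFKB1 and NFKB2, in order of the size of the fall. Vemurafenib changed the level of 52.6% of all genes tested and lowered 26.3%, or 30.5% of the 9926 genes whose mean level lay in the members' range of 3.29 to 105.7 CPM. The median log2 fold change of the 10 members was -0.677, against 0.0195 over all genes tested. Because the members were chosen with earlier results of these data known, these set values are a description with no test. RELA, REL and NFKBIA did not pass the test.

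**Figure D1:**
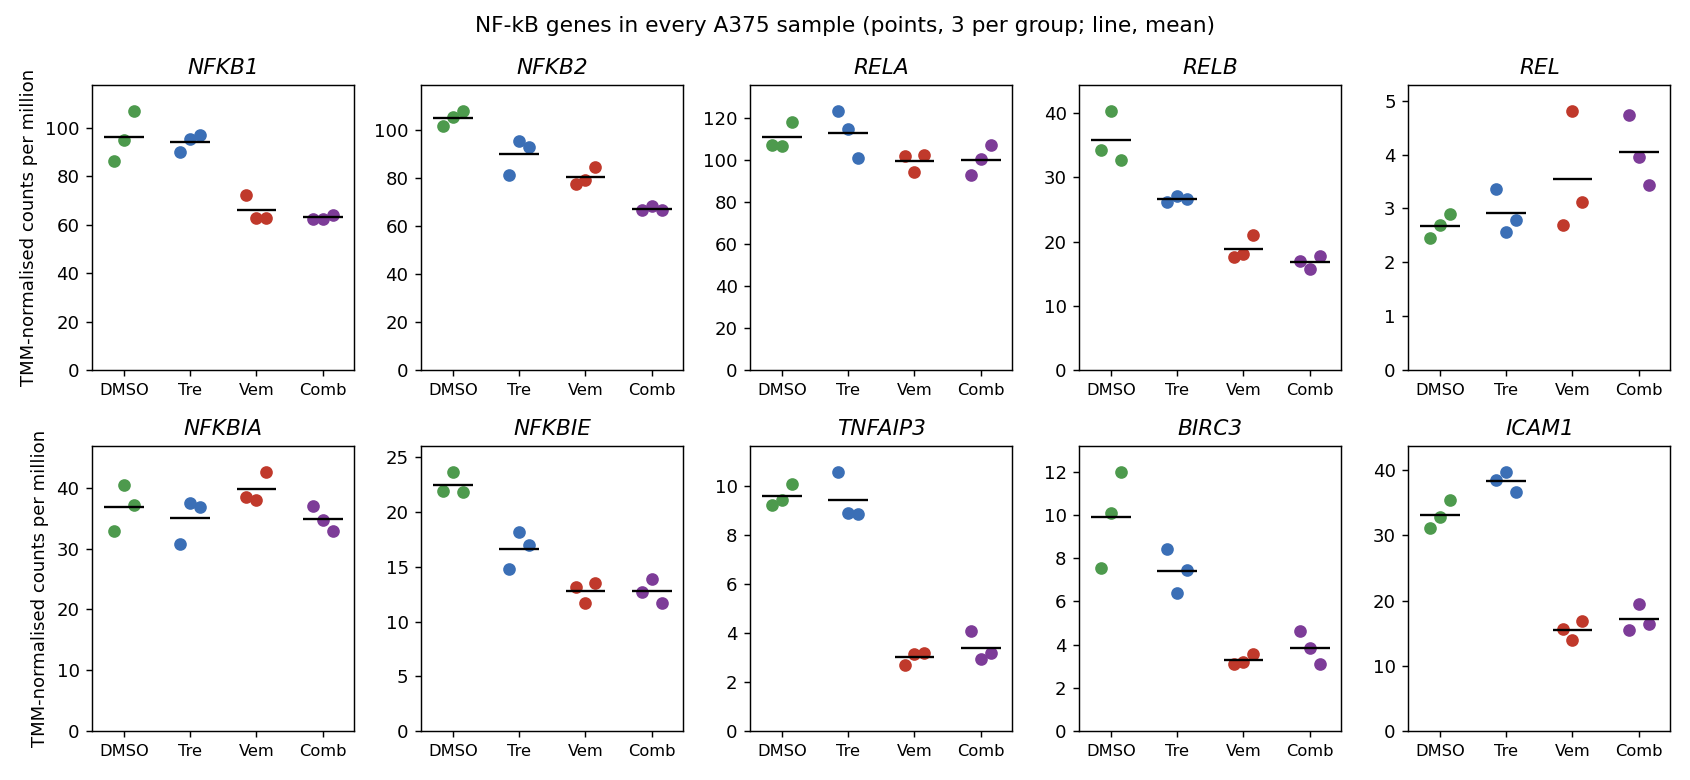
Levels of the 10 NF-kB genes in each of the 12 A375 samples, as TMM-normalised CPM on axes that start at 0; points are samples (DMSO, tretinoin, vemurafenib and combination, 3 each) and lines are group means. With vemurafenib the mean is at 31.3% of its DMSO level for TNFAIP3, 33.3% for BIRC3 and 46.9% for ICAM1, the 3 largest falls, and at 108.0% for NFKBIA.

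Among the inhibitors, TNFAIP3 encodes A20, a ubiquitin-editing enzyme that shuts NF-kB signalling down, and lies at chr6:137867188-137883312 (+) on GRCh38. It stood at 9.22, 9.46 and 10.1 CPM with DMSO, at 10.6, 8.89 and 8.87 with tretinoin, at 2.70, 3.13 and 3.18 with vemurafenib, and at 4.07, 2.93 and 3.17 with the combination. All 6 samples that had received vemurafenib were far below the 6 that had not. With vemurafenib TNFAIP3 was at 31.3% of its DMSO level, a log2 fold change of -1.68 (SE 0.15, adjusted p = 4.6e-08). These values rest on 52 to 192 fragments per sample.

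NFKBIE, which encodes IkB-epsilon (chr6:44258166-44265788, -), stood at 21.9, 23.7 and 21.8 CPM with DMSO, at 14.8, 18.2 and 17.0 with tretinoin, at 13.2, 11.7 and 13.5 with vemurafenib, and at 12.7, 13.9 and 11.7 with the combination. The DMSO samples were above all others, tretinoin lay between, and the vemurafenib and combination samples were intermixed at the bottom. With vemurafenib it was at 57.0% of the DMSO level (log2 fold change -0.81, SE 0.10, adjusted p = 3.4e-06). NFKBIA encodes IkB-alpha, the inhibitor best known for its rapid resynthesis after NF-kB activation (chr14:35401511-35404749, -). It stood at 32.9, 40.5 and 37.2 CPM with DMSO, at 30.8, 37.5 and 36.9 with tretinoin, at 38.6, 38.1 and 42.7 with vemurafenib, and at 37.1, 34.7 and 33.0 with the combination. The DMSO and vemurafenib ranges overlapped, and the log2 fold change of 0.11 had a 95% interval from -0.0865 to 0.306 (adjusted p = 0.34). NFKBIA thus showed no fall of the size seen for TNFAIP3 or NFKBIE, the ends of whose intervals nearest to 0 were -1.37 and -0.597. When libraries were scaled to total counts instead of by TMM, which moved the median of all genes to 0.214, NFKBIA passed the test as higher with vemurafenib (0.306, adjusted p = 0.0064).

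BIRC3 and ICAM1 are the 2 targets outside the subunits and inhibitors. BIRC3 encodes the ubiquitin ligase cIAP2, an inhibitor of apoptosis (chr11:102317450-102339403, +), and stood at 7.54, 10.1 and 12 CPM with DMSO, at 8.43, 6.39 and 7.45 with tretinoin, at 3.12, 3.18 and 3.55 with vemurafenib, and at 4.62, 3.86 and 3.08 with the combination. The DMSO samples were spread widely, yet the lowest of them was above every sample with vemurafenib. The log2 fold change with vemurafenib was -1.60 (SE 0.18, adjusted p = 1.3e-06), to 33.3% of the DMSO level. ICAM1 encodes an adhesion molecule that binds leukocyte integrins (chr19:10270835-10286615, +). It stood at 31.1, 32.9 and 35.5 CPM with DMSO, at 38.5, 39.8 and 36.6 with tretinoin, at 15.7, 14 and 16.9 with vemurafenib, and at 15.5, 19.5 and 16.4 with the combination. The tretinoin samples were the highest and all 6 samples with vemurafenib the lowest. Vemurafenib took ICAM1 to 46.9% of the DMSO level (log2 fold change -1.10, SE 0.10, adjusted p = 6.5e-08).

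With vemurafenib the subunits moved unequally, and the log2 fold changes of all 5 were smaller in size than those of TNFAIP3, BIRC3 and ICAM1. The 95% intervals of RELB (-1.12 to -0.719) and ICAM1 (-1.31 to -0.888) overlapped, and the difference between these genes was not tested. RELB, the partner of the processed NFKB2 product in the non-canonical arm (chr19:45001430-45038198, +), stood at 34.2, 40.3 and 32.7 CPM with DMSO, at 26.1, 27 and 26.6 with tretinoin, at 17.6, 18.1 and 21.0 with vemurafenib, and at 17.0, 15.8 and 17.7 with the combination. Its levels stepped down from DMSO through tretinoin to the vemurafenib-treated samples with no overlap between these 3 steps. The log2 fold change with vemurafenib was -0.92 (SE 0.09, adjusted p = 3.3e-07), to 52.9% of DMSO. NFKB1, which encodes p105 and its product p50 (chr4:102501329-102617302, +), stood at 86.4, 94.9 and 107.1 CPM with DMSO, at 90.3, 95.3 and 97.2 with tretinoin, at 72.2, 63.0 and 62.9 with vemurafenib, and at 62.6, 62.6 and 64.0 with the combination. DMSO and tretinoin samples were intermixed above the other 6, and NFKB1 fell with vemurafenib by 0.54 on the log2 scale (SE 0.08, adjusted p = 2e-05). NFKB2, which encodes p100 and its product p52 (chr10:102394110-102402529, +), stood at 101.6, 105.4 and 107.8 CPM with DMSO, at 81.1, 95.2 and 92.8 with tretinoin, at 77.6, 79.1 and 84.4 with vemurafenib, and at 66.6, 68.2 and 66.6 with the combination. DMSO was highest and the combination lowest, with no overlap between either and the other groups. The fall of NFKB2 with vemurafenib was the smallest of the 7 (-0.39, SE 0.07, adjusted p = 0.00016).

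RELA and REL carry the transactivating domains of the canonical dimers. RELA, which encodes p65 (chr11:65653596-65663094, -), stood at 107.2, 106.7 and 117.9 CPM with DMSO, at 123.2, 114.6 and 100.6 with tretinoin, at 101.9, 94.1 and 102.0 with vemurafenib, and at 92.8, 100.2 and 107.2 with the combination. The vemurafenib samples were just below the DMSO samples, and the log2 fold change of -0.16 had a 95% interval from -0.325 to 0.0135 (adjusted p = 0.11). Its sign depended on the scaling, since with total counts it was 0.0377, and in a fit of the DMSO and vemurafenib samples alone the fall passed the test (-0.148, adjusted p = 0.041). REL encodes c-Rel, the subunit most associated with lymphoid cells (chr2:60881521-60931610, +), and stood at 2.45, 2.70 and 2.90 CPM with DMSO, at 3.37, 2.56 and 2.79 with tretinoin, at 2.70, 4.81 and 3.12 with vemurafenib, and at 4.73, 3.95 and 3.44 with the combination. A single vemurafenib sample was high, another lay just above the DMSO samples and the remaining sample was within their range. With vemurafenib the log2 fold change was 0.41 (SE 0.22, adjusted p = 0.13), but REL passed the test with total counts (0.602, adjusted p = 0.034) and without vemurafenib replicate 1 (0.571, adjusted p = 0.048). These REL values rest on only 38 to 100 fragments per sample.

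The relative amounts of the subunit transcripts followed from these differences. Summed over the 5 subunits, the level was 71.0 ± 3.15 CPM per kilobase with DMSO, 64.7 ± 1.61 with tretinoin, 53.1 ± 1.74 with vemurafenib and 49.2 ± 1.5 with the combination (SD, n = 3). RELA made up 28.5% ± 1.11 of that sum with DMSO and 31.9% ± 3.18, 34.2% ± 0.632 and 37.2% ± 1.56 with tretinoin, vemurafenib and the combination. Its own level was 20.2 CPM per kilobase with DMSO and 18.3 with the combination. The RELB share went from 16.6% ± 1.94 through 13.5% ± 0.200 and 11.7% ± 0.899 to 11.3% ± 0.585 in the same order of groups. REL stayed below 1 percent of the sum in every sample, a share that is a minimum because of its overlapped exon bases. Among the inhibitors, the ratio of NFKBIA to TNFAIP3 per length went from 8.18 ± 0.827 with DMSO and 8.00 ± 1.59 with tretinoin to 28.3 ± 2.29 with vemurafenib and 22.3 ± 2.93 with the combination. These shares and ratios were not tested on their own.

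**Figure D2:**
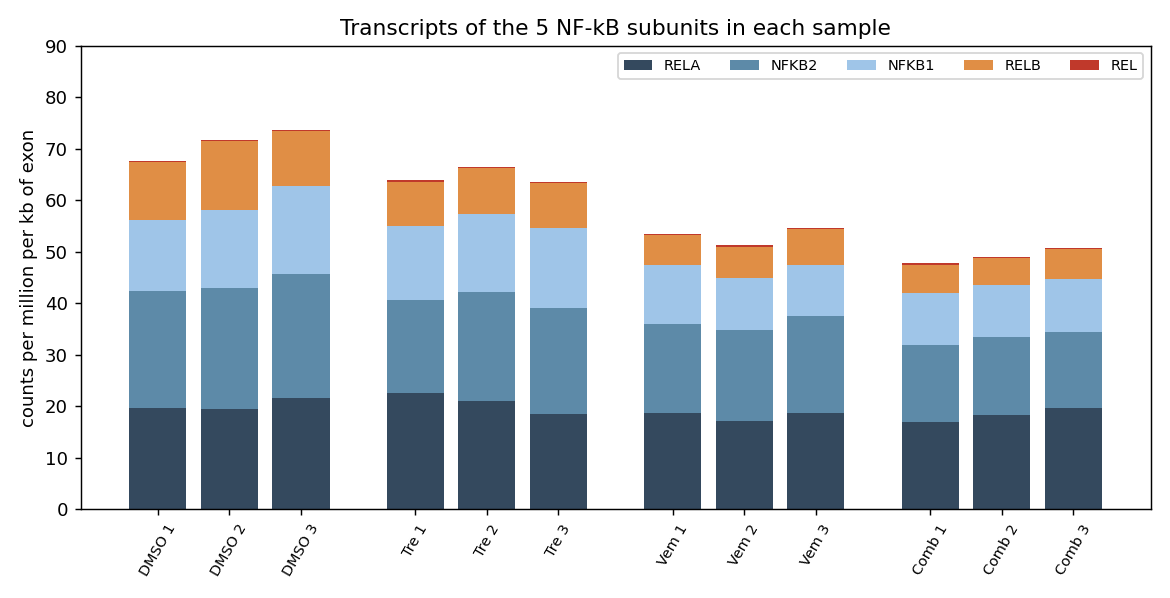
Transcript levels of the 5 NF-kB subunits stacked for each of the 12 samples, in CPM per kilobase of exon (bars start at 0; numbers are replicates). The stacks shrink from DMSO (67.5 to 73.7) to vemurafenib (51.3 to 54.7) and the combination (47.8 to 50.8), and among the 4 abundant subunits RELA changes least in height.

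Tretinoin alone was compared with DMSO to ask what the retinoid did without BRAF inhibition. Of the 10 members 2 fell, RELB to 74.4% (log2 fold change -0.42, SE 0.09, adjusted p = 0.012) and NFKBIE to 74.2% of the DMSO level (-0.42, SE 0.10, adjusted p = 0.019). Tretinoin changed 5.68% of all genes tested and lowered 2.20%, and the members' median log2 fold change was -0.0487 against 0.011 over all genes. All 3 tretinoin samples were below all 3 DMSO samples for RELB, NFKBIE and NFKB2, as for 12.9% of all genes tested, and above them for ICAM1, as for 11.3%. NFKB2 narrowly missed the threshold in edgeR (-0.22, SE 0.07, adjusted p = 0.066) and passed it in DESeq2 (-0.239, adjusted p = 0.024). ICAM1 had a log2 fold change of 0.21 (95% interval 0.00764 to 0.404, adjusted p = 0.20) and BIRC3 one of -0.42 (adjusted p = 0.14). TNFAIP3, the member that fell furthest with vemurafenib, had a log2 fold change of -0.03 with a 95% interval from -0.303 to 0.245. Both calls were lost without DMSO replicate 2, where RELB gave -0.330 (adjusted p = 0.086) and NFKBIE -0.384 (adjusted p = 0.095). In that fit 379 of all genes were called, against 951 with every sample. With other samples left out both calls held, with NFKBIE at values as small in size as -0.351. Both also missed the threshold when only the DMSO and tretinoin samples were fitted (adjusted p = 0.062 and 0.089).

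**Figure D3:**
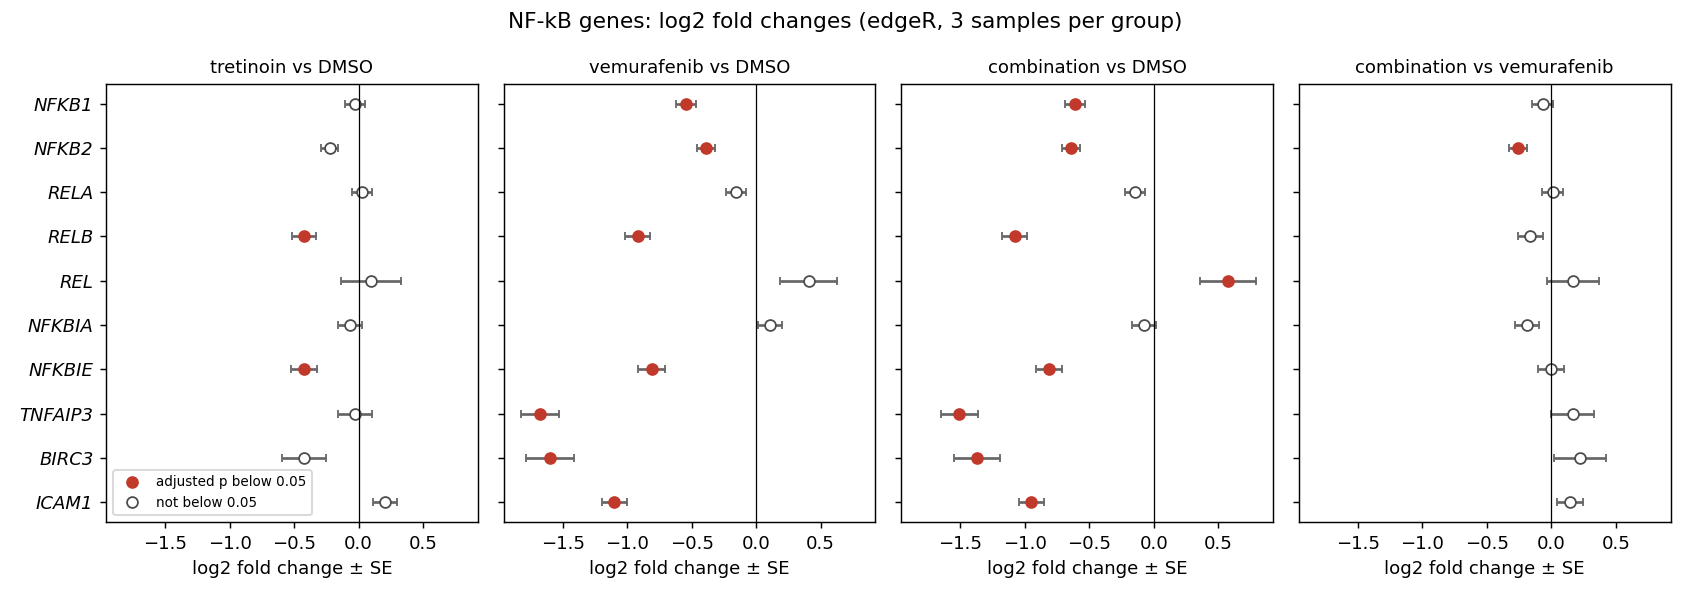
Log2 fold changes of the 10 NF-kB genes with their standard errors in 4 comparisons (3 samples a group, edgeR), filled where the adjusted p was below 0.05. The 7 members that fell with vemurafenib lie at -0.39 to -1.68 in its panel and at -0.61 to -1.51 against DMSO with the combination, whereas in the combination against vemurafenib all 10 lie between -0.26 and 0.23.

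With the combination, the 7 members that fell with vemurafenib were lower than in DMSO and REL was higher. The combination changed 53.6% of all genes tested, with 26.5% lower and 27.1% higher, and this comparison shares its DMSO samples with those of the single drugs. The median log2 fold change of the members was -0.729, against 0.0252 over all genes. TNFAIP3 was again the member that fell furthest, to 35.3% of DMSO (log2 fold change -1.51, SE 0.14, adjusted p = 1.1e-07), followed by BIRC3 (-1.37, SE 0.18, adjusted p = 4.9e-06) and RELB (-1.08, SE 0.10, adjusted p = 4.2e-08). ICAM1 was at 51.7% of DMSO (-0.95, SE 0.10, adjusted p = 3.1e-07) and NFKBIE at 56.9% (-0.81, SE 0.10, adjusted p = 2.8e-06). NFKB2 (-0.64, SE 0.07, adjusted p = 5.3e-07) and NFKB1 (-0.61, SE 0.08, adjusted p = 5.2e-06) fell by similar amounts. REL rose by 0.58 (SE 0.22, adjusted p = 0.033), a call that was lost in DESeq2 (adjusted p = 0.076) and when any of DMSO replicates 1, 2 and 3 or combination replicates 1 and 2 was left out (adjusted p up to 0.13). RELA (-0.14, 95% interval -0.314 to 0.0241) and NFKBIA (-0.08, 95% interval -0.275 to 0.118) did not pass the test, and both values were positive with total counts (0.0167 and 0.0863).

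The combination was set against vemurafenib to ask what tretinoin added to BRAF inhibition. A single member, NFKB2, fell further, from 80.4 ± 3.55 to 67.1 ± 0.888 CPM (SD, n = 3; log2 fold change -0.26, SE 0.07, edgeR adjusted p = 0.040). In this comparison 4.47% of all genes tested changed and 2.20% were lower. The NFKB2 call was lost without the filter on low counts (adjusted p = 0.23) and when any of the 6 samples was left out, with log2 fold changes between -0.286 and -0.224. For the other 9 members the log2 fold changes lay between -0.19 (NFKBIA) and 0.23 (BIRC3). The 4 members that vemurafenib lowered most had the intervals -0.18 to 0.51 (TNFAIP3), -0.2 to 0.651 (BIRC3), -0.0667 to 0.363 (ICAM1) and -0.369 to 0.0426 (RELB), none of which reaches the size of the vemurafenib effect itself.

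Against tretinoin alone, 7 members were lower with the combination, the same genes as in vemurafenib against DMSO. This comparison, which measures vemurafenib on a tretinoin background, changed 49.1% of all genes tested and lowered 25.0%. The falls ran from -0.39 for NFKBIE (SE 0.10, adjusted p = 0.0045) and -0.42 for NFKB2 (SE 0.07, adjusted p = 7.9e-05) to -1.16 for ICAM1 (SE 0.10, adjusted p = 2.8e-08) and -1.48 for TNFAIP3 (SE 0.14, adjusted p = 1.7e-07). RELA had a log2 fold change of -0.17 (adjusted p = 0.088) and passed the test without tretinoin replicate 3 (-0.253, adjusted p = 0.016) or combination replicate 3 (-0.231, adjusted p = 0.045). REL had one of 0.48 (adjusted p = 0.075), and passed with total counts (adjusted p = 0.043) and without tretinoin replicate 1 (adjusted p = 0.042).

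The interaction, the log2 change with tretinoin in the presence of vemurafenib minus that in its absence, tests whether the drugs' effects added up on the log scale. No member passed it in edgeR or DESeq2, where 0.806% of all genes tested passed in edgeR. Before adjustment 2 members were below the 0.05 threshold, both positive: NFKBIE with 0.42 (SE 0.14, edgeR adjusted p = 0.19) and BIRC3 with 0.65 (SE 0.26, edgeR adjusted p = 0.26). In both, the combination was less low than the sum of the single-drug changes. The intervals are wide for the scarce members, for instance -0.246 to 0.634 for TNFAIP3 and -0.582 to 0.724 for REL. Departures of that size were therefore not detectable with these samples.

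The other genes of the pathway were taken from lists of 86 receptors, adaptors and kinases, inhibitors and targets, of which 73 were tested. These lists were also chosen with earlier results of these data known, so their counts and medians are a description. Vemurafenib lowered 36 of them and raised 10, where it lowered 26.3% of all genes tested and changed 52.6%. Among the 10 receptors tested 7 fell and 1 rose. TLR4, the receptor for bacterial lipopolysaccharide, fell from 43.7 ± 3.31 to 4.76 ± 0.282 CPM (log2 fold change -3.19, SE 0.14, adjusted p = 7e-12) and TNFRSF1B, a TNF receptor, from 20.5 ± 1.19 to 2.64 ± 0.642 CPM (-2.95, SE 0.14, adjusted p = 2.1e-11). TLR3, a receptor for double-stranded RNA, rose (1.49, SE 0.13, adjusted p = 3e-08). The 26 adaptors and kinases split, with 9 lower and 6 higher and a median of 0.0415. Of these MAP3K14, the non-canonical kinase NIK, fell most (-1.56, SE 0.11, adjusted p = 2.6e-09), followed by TRAF3, which targets NIK for destruction (-0.72, SE 0.08, adjusted p = 8.1e-07), while IRAK4, a kinase of Toll-like receptor signalling (0.91), and TRADD, an adaptor of the TNF receptor (0.51), rose most.

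Of the 12 further inhibitors 5 fell and 1 rose with vemurafenib, a share near the 52.6% of all genes tested that changed. NKIRAS1, an IkB-binding GTPase, fell by 0.96 on the log2 scale and BCL3, a nuclear IkB protein, by 0.66, and CYLD, a deubiquitinase, rose by 0.36. The 25 further targets tested had a median log2 fold change of -0.898, with 15 lower and 2 higher. The neutrophil chemokine CXCL8 stood at 38.1 ± 3.04 CPM with DMSO and 0.757 ± 0.0312 with vemurafenib (-5.64, SE 0.14, adjusted p = 4e-15), and CSF2, which encodes the growth factor GM-CSF, had 25 to 28 counts in each DMSO sample and at most 1 in each vemurafenib sample. The exceptions that rose were SQSTM1, an autophagy receptor (0.27, a call lost without DMSO replicate 1 or 3 or vemurafenib replicate 3), and CFLAR, an inhibitor of caspase-8 activation (0.65). With the combination 33 pathway genes were lower and 10 higher than in DMSO, where 53.6% of all genes tested changed and 26.5% were lower. Among the lower genes were CXCL8 (-5.43) and the related chemokine CXCL1 (-5.34). CHUK, which encodes the IKK-alpha kinase (-0.67), and OTULIN, a deubiquitinase of linear ubiquitin (-0.43), were also among the largest falls of their lists with the combination. Against tretinoin, 36 pathway genes were lower and 13 higher, where 49.1% of all genes tested changed and 25.0% were lower. The 13 pathway genes not tested, which include IL6, TNF, IL1B, CCL5 and VCAM1, had at most 13 counts in any sample, so these cytokines and adhesion genes were near the detection limit.

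**Figure D4:**
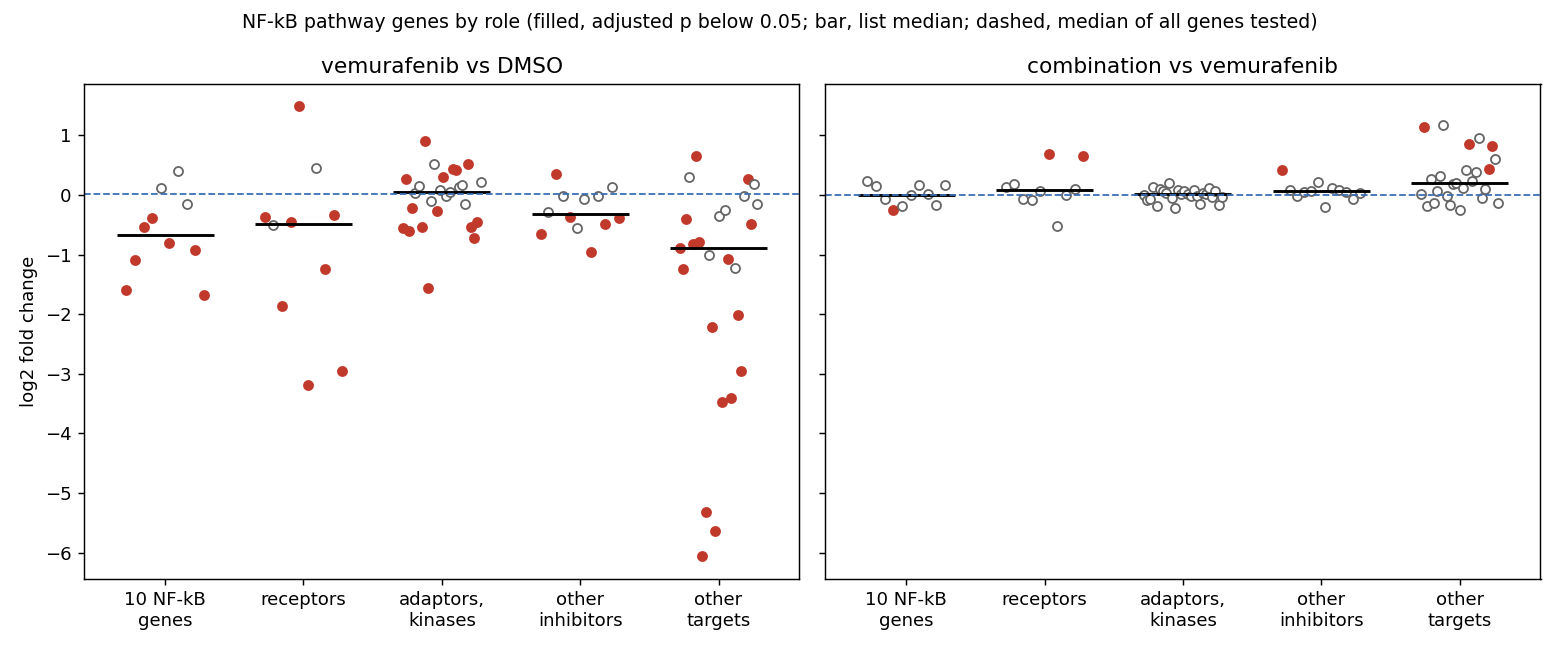
Log2 fold changes of the 10 NF-kB genes and of the other pathway genes tested, by role, for vemurafenib against DMSO (left) and the combination against vemurafenib (right), filled where the adjusted p was below 0.05. Bars are list medians and the dashed line is the median of all genes tested; with vemurafenib the targets (median -0.898) and the 10 genes (median -0.677) lie lowest, and the adaptors and kinases (0.0415) lie near that line. CSF2, the lowest target, had 1 count in all over the 3 vemurafenib samples and is drawn at its fitted value.

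Tretinoin raised 8 of the 73 pathway genes and lowered 2, where it changed 5.68% of all genes tested. The 3 receptors that rose include TLR4, to 95.4 ± 11.4 CPM (log2 fold change 1.12, SE 0.11, adjusted p = 8.8e-06), and TLR3 (0.59, adjusted p = 0.018; lost without DMSO replicate 1 or 2 or tretinoin replicate 1). Among the targets the chemokine CCL2 rose from 9.28 ± 0.150 to 21.3 ± 1.01 CPM (1.20, SE 0.12, adjusted p = 5.2e-06) and the cytokine IL1A from 0.657 ± 0.133 to 1.93 ± 0.612 CPM (1.54, SE 0.31, adjusted p = 0.0069). CXCL1 fell from 49.4 ± 8.28 to 27.1 ± 2.42 CPM (-0.87, SE 0.11, adjusted p = 0.00013). IER3, a stress-response gene, also fell (-0.30, adjusted p = 0.015), a call lost without DMSO replicate 1 or tretinoin replicate 2. The IER3 call was lost with total counts as well (-0.231, adjusted p = 0.08). When only the DMSO and tretinoin samples were fitted, both TLR3 and IER3 missed the threshold (edgeR adjusted p = 0.11 for each). Against vemurafenib alone the combination raised 7 of the 73, where 4.47% of all genes tested changed. CCL2 went from 3.90 ± 0.245 to 8.54 ± 1.5 CPM (1.14, SE 0.13, adjusted p = 2.5e-05), IRF1, an interferon-pathway transcription factor, from 12.4 ± 0.688 to 22.4 ± 1.40 CPM (0.85, SE 0.08, adjusted p = 3.9e-06), and TNFAIP2, named after its values were seen, from 66.6 ± 0.586 to 117.5 ± 5.87 CPM (0.82, SE 0.07, adjusted p = 1.4e-06). BCL3 rose by 0.42 (adjusted p = 0.0079), TLR4 by 0.68 (adjusted p = 0.019) and TNFRSF1B by 0.66 (adjusted p = 0.029). The last 3 calls were each lost when some single samples were left out. The adjusted p then reached 0.055 for BCL3, 0.13 for TLR4 and 0.18 for TNFRSF1B. The TNFRSF1B call was also lost with the replicate block (adjusted p = 0.053). At 22% of exon bases shared with another gene, IRF1 is partly uncounted. The 3 endothelial markers summed to 5.28 to 6.55 CPM with DMSO, 12.7 to 17.2 with tretinoin, 2.40 to 3.17 with vemurafenib and 5.34 to 6.20 with the combination, and their part in the result was not tested. CDH5 moved from 0.137 to 3.15 CPM between vemurafenib and the combination, whereas VWF stood at 2.08 and 1.96 CPM and PECAM1 at 0.521 and 0.598.

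Genes whose levels over the 12 samples were most like those of a member were found by the root mean square difference of log2 CPM after centring each gene on its own mean, among 11523 genes. MAP3K14, itself on the pathway list, was nearest to BIRC3 at 0.127, ahead of FRMD4B at 0.181 and ZNF367 at 0.185. PIM3, a serine/threonine kinase, was nearest to RELB at 0.0698, SERPINE2, a secreted protease inhibitor, to ICAM1 at 0.0951, and CD3EAP, an RNA polymerase I subunit, to TNFAIP3 at 0.114. CENPB, a centromere protein, was nearest to NFKBIE at 0.0862 and TYSND1, a peroxisomal protease, to NFKBIA at 0.0769. The likeness is a description over samples that share their groups, with no test.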

How the data were processed

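Poly(A) RNA of 12 A375 samples was sequenced on an Illumina HiSeq. The authors aligned reads with STAR 2.5.3a to GRCh38.p10, per the processing notes, and counted fragments per GENCODE 27 gene in union mode with the strand ignored, although the kit marks strand, so fragments in exons shared by overlapping genes were not assigned. The deposited values are raw counts per gene, 1 library per sample, and were not normalised. Positions, symbols and exon lengths were taken from GENCODE 29 (58084 of 58347 identifiers matched), and promoter sequences from RefSeq (GRCh38.p14).

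Counts were filtered with filterByExpr (16740 genes left), normalised by TMM and fitted with glmQLFit and glmQLFTest in edgeR 4.0.16 (R 4.3.3), with a term per group over all 12 samples and no block (common dispersion 0.00653). P-values were adjusted by Benjamini-Hochberg within each of 6 comparisons. Standard errors are the fold change divided by the root of F. All pathway genes were taken from lists, and per list the text names up to 2 rises and 2 falls with the largest change whose replicates do not overlap. The members and the lists were chosen with earlier results of these data known. Alternatives were DESeq2 1.42.0 without and with a beta prior, other scalings, other count filters, only the groups compared, a replicate block and leaving out each sample. No batch is given by the labels. Of the cell type markers, 1 is not reported here. Over all genes tested, replicate numbers showed no pairing: the deviations of 18 same-numbered pairs correlated at -0.143 to 0.0872, none over 0.1. A pairing limited to some genes would not show in these correlations. Replicates of every group differed by more than sampling noise (chi-square per degree of freedom 2.56 to 21.8). The errors given cover the spread between these samples, and the part of depth in them was not tested.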

Additional observations from a re-analysis of the deposited data

Results flagged for a closer look

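The difference between the tretinoin effect with and without vemurafenib passed its own test for 2 of the 73 pathway genes, and for 0.806% of all genes tested. For IRF1 the interaction was 0.668 on the log2 scale (SE 0.12, edgeR adjusted p = 0.0085), with a mean level of 26.1 ± 0.730 CPM with DMSO, 29.5 ± 0.479 with tretinoin, 12.4 ± 0.688 with vemurafenib and 22.4 ± 1.40 with the combination (SD, n = 3). For TNFAIP2 it was 0.513 (SE 0.10, adjusted p = 0.024), with 93.1 ± 7.13, 115.3 ± 8.48, 66.6 ± 0.586 and 117.5 ± 5.87 CPM in the same order. The TNFAIP2 call was lost with total-count scaling (0.406, adjusted p = 0.091), with the replicate block (adjusted p = 0.065) and without DMSO replicate 2 or 3, tretinoin replicate 2, any single vemurafenib sample or combination replicate 1 or 2 (0.448 to 0.526, adjusted p 0.052 to 0.086), whereas the IRF1 call held under each alternative run. None of the 10 NF-kB genes passed this test.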

How the results depend on the processing

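The 7 falls of members with vemurafenib, with the combination against DMSO and with the combination against tretinoin kept their direction and their side of the threshold under each alternative run. No call of a member turned its direction. The number of members called became 0 with only the 2 groups compared for tretinoin against DMSO, and 0 without the count filter and with the replicate block for the combination against vemurafenib. The block is a fit whose pairing the data do not bear out. Among the pathway genes, 6 were called for tretinoin with only the 2 groups compared, and the interaction gave 6 without the filter and 1 with the replicate block. Over all genes, tretinoin gave 1540 without the filter and 305 with only the 2 groups compared, against 951. The combination against vemurafenib gave 1269 with only the 2 groups compared, against 749, and the interaction gave 258 and 265 in DESeq2 without and with the beta prior, 610 without the filter and 75 with the replicate block, against 135.

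With a sample left out, the members called ranged from 0 to 2 for tretinoin and were 0 throughout for the combination against vemurafenib. The pathway genes called ranged from 4 to 6 for the combination against vemurafenib and from 1 to 3 for the interaction. All genes called ranged from 379 (without DMSO replicate 2) to 1367 (without tretinoin replicate 3) for tretinoin, from 460 to 586 for the combination against vemurafenib, and from 60 to 265 for the interaction.

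Scaling to total counts moved the median log2 fold change of all genes from 0.0195 to 0.214 with vemurafenib, from 0.0252 to 0.187 with the combination, from 0.0172 to 0.107 for the combination against tretinoin and from -0.00961 to -0.114 for the interaction. The share of calls that were rises went from 61.3% to 81.3% with tretinoin, 50.1% to 71.4% with vemurafenib, 50.5% to 68.2% with the combination, 49.0% to 60.7% for the combination against tretinoin and 47.4% to 21.4% for the interaction. It was 46.9% and 46.0% for tretinoin in DESeq2 without and with the beta prior, 47.8% without the filter and 76.7% with only the 2 groups compared, and 63.8% for the interaction without the filter.

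Reversals concerned values that had not passed the test. With total counts NFKB1 (0.0438), NFKBIA (0.00313) and TNFAIP3 (0.0446) turned positive for tretinoin, RELA for vemurafenib (0.0377) and the combination (0.0167), and NFKBIA for the combination against DMSO (0.0863) and tretinoin (0.0832), while RELA for the combination against vemurafenib (-0.0211) and REL for the interaction (-0.0336) turned negative. RELA turned positive for the interaction without the filter (0.0179). NFKBIA turned positive for the combination against tretinoin with at least 10 counts in every sample (0.0275) and with only the 2 groups compared (0.0002), and NFKBIE for the combination against vemurafenib without the filter (0.0149), with at least 10 counts (0.00178) and with only the 2 groups compared (0.000571). The cause was not tested.

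With a sample left out, log2 fold changes that crossed 0 ranged for tretinoin from -0.0971 to 0.0581 (NFKB1), -0.0432 to 0.101 (RELA), -0.0101 to 0.183 (REL), -0.14 to 0.0123 (NFKBIA) and -0.116 to 0.0147 (TNFAIP3). For the combination against vemurafenib they ranged from -0.0438 to 0.0623 (RELA), -8.78e-07 to 0.467 (REL) and -0.0693 to 0.0552 (NFKBIE), and against tretinoin from -0.0957 to 0.0309 (NFKBIA). For the interaction they ranged from -0.126 to 0.0291 (NFKB1), -0.0988 to 0.00787 (NFKB2), -0.0912 to 0.0547 (RELA), -0.101 to 0.366 (REL) and -0.164 to 0.00835 (ICAM1).

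REL, TNFAIP3 and BIRC3, the members of lowest mean CPM, had standard errors of 0.13 to 0.23 for single-drug effects, against 0.07 to 0.10 for the other members. With DMSO, BIRC3 was at 9.86 ± 2.23 CPM and TNFAIP3 at 9.60 ± 0.475 (SD, n = 3). The parts of depth and of the spread between samples in these errors were not tested.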
